A study of Mus musculus with 9 samples.

Results

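Neurotrophic factors, their receptors and genes known to respond to exercise were followed in RNA from mouse brain tissue described as substantia nigra, the nucleus whose dopaminergic neurons degenerate in Parkinson disease. The set is 10 genes out of 55335 in the deposited table, found by gene symbol with no filter on level, and all 10 were present. It holds the ligands and secreted factors Bdnf, Ntf3, Gdnf, Vegfa, Manf and Fndc5, the receptors Ntrk2, Ntrk3 and Gfra1, and the transcriptional coactivator Ppargc1a. The 9 libraries fall into 3 groups of 3. MPTP plus exercise mice received MPTP-HCl, the salt of a toxin of dopaminergic neurons, in saline by intraperitoneal injection at 20 mg/kg, 2 times a week for 5 weeks, and ran voluntarily on a wheel for 2 months from the time of the first dose. MPTP mice had the same injections with no wheel running described, and vehicle mice had saline on the same schedule. No group ran without MPTP. Strain, sex and age are not given here. The labels do not state that each library came from its own mouse, so the tests measure the spread between these libraries.

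BDNF and neurotrophin-3 are secreted growth factors that act through the receptor tyrosine kinases TrkB (Ntrk2) and TrkC (Ntrk3), while GDNF binds GFRα1 (Gfra1), which presents it to the kinase RET. BDNF and GDNF are known to support the survival of midbrain dopaminergic neurons in culture, and running is known to raise Bdnf in the rodent hippocampus. VEGF-A drives vessel growth, MANF is a protein of the endoplasmic reticulum that can be secreted, FNDC5 is the membrane precursor of the exercise hormone irisin, and PGC-1α (Ppargc1a) is a coactivator of mitochondrial genes that acts upstream of Fndc5 in muscle.

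The sequence upstream of the start site is shown for 4 members: Vegfa, because its libraries stood apart by group, and Bdnf, Gdnf and Ppargc1a, because they share a motif. Each is the 250 bases before a RefSeq start site (GRCm38.p6), 5′ to 3′ on the gene's strand. Capitals mark matches on either strand to TGACG, the core of the cyclic AMP response element TGACGTCA, or to ACGTG or GCGTG, the core of the hypoxia response element. The windows are chr2:109692186-109692435 on the plus strand for Bdnf (number 3 of its 7 windows by position), chr15:7809798-7810047 on the plus strand for Gdnf, chr5:51567726-51567975 on the minus strand for Ppargc1a and chr17:46032378-46032627 on the minus strand for Vegfa.
Bdnf: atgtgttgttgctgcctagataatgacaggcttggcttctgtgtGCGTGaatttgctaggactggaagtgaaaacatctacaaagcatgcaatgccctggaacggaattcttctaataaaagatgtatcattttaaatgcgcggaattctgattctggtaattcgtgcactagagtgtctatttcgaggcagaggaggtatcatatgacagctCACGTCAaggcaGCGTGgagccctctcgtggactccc
Gdnf: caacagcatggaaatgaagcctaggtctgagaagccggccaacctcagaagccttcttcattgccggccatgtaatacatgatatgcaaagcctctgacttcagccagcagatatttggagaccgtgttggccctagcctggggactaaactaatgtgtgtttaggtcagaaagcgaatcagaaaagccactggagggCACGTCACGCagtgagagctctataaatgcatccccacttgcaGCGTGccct
Ppargc1a: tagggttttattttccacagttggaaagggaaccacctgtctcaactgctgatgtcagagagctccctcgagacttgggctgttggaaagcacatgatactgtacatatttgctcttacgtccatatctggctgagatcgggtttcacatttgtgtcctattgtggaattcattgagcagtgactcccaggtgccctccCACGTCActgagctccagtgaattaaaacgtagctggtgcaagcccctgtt
Vegfa: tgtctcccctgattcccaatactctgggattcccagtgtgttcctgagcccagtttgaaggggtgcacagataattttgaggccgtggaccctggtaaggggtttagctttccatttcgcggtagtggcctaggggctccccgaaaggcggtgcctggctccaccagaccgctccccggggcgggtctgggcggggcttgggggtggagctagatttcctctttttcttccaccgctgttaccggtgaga
The run CACGTCA, in which TGACG on the minus strand overlaps ACGTG, spans bases −37 to −31 from the start site in Bdnf, −52 to −46 in Gdnf and −51 to −45 in Ppargc1a. It was searched on its own after these matches were seen. It is in 4 of the 17 windows that RefSeq gives for 8 members, the other being a Vegfa window that starts inside the gene, and in 1.65% of the 32851 windows of all genes. TGACGTCA was in 0 of the 17 (1.55% of all windows), TGACG in 4 (17.8%), ACGTG in 7 (16.6%) and GCGTG in 6 (28.2%). Several windows belong to 1 gene, and a match describes letters only. The other Gdnf window (chr15:7813477-7813726) held no match to any of these. Manf and Ntrk3 had no window.

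No member passed the test in any comparison. Of the members, 9 had a mean of at least 0.5 FPKM (fragments scaled to gene length and library size) and were tested with limma on log2(FPKM + 1), at a Benjamini-Hochberg adjusted p under 0.05. Gdnf was under that level and is given by its values. Between MPTP plus exercise and MPTP 0 members passed (0% of all 15997 tested genes), between MPTP plus exercise and vehicle 0 (0%) and between MPTP and vehicle 0 (0.0125%). At an unadjusted p under 0.05, Vegfa and Gfra1 were lower in MPTP plus exercise than in MPTP, where 3.99% of all tested genes had such a p (2.89% lower and 1.11% higher). In MPTP plus exercise against vehicle there were 0 such members, against 6.54% of all genes (3.43% lower and 3.12% higher). In MPTP against vehicle Vegfa was the 1 such member and was higher, against 4.09% of all genes (1.48% lower and 2.61% higher).

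Members whose groups did not overlap are given beside the share of all tested genes. Between MPTP plus exercise and MPTP, 1 of 9 tested members was apart, on the lower side (Vegfa), against 8.02% of all tested genes (5.36% lower and 2.66% higher). Between MPTP plus exercise and vehicle, 2 members were apart, Ntrk2 on the lower and Manf on the higher side, against 15.6% of all genes (9.2% lower and 6.38% higher). Between MPTP and vehicle, 1 member was apart, on the higher side (Vegfa), against 9.43% of all genes (4.23% lower and 5.2% higher). In each comparison 4 tested members were higher and 5 lower. Their median log2 difference was −0.089 in MPTP plus exercise against MPTP, −0.044 in MPTP plus exercise against vehicle and −0.010 in MPTP against vehicle, beside medians of −0.012, −0.022 and −0.0059 over all tested genes.

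The tissue description was checked against markers of dopaminergic neurons. Slc6a3, the dopamine transporter, was at 0.149, 0 and 10.6 FPKM in MPTP plus exercise libraries, at 2.75, 0.0377 and 14.4 FPKM in MPTP libraries and at 3.40, 1.41 and 10.8 FPKM in vehicle libraries. Th, the rate-limiting enzyme of dopamine synthesis, was at 2.66, 5.35 and 6.69 FPKM in MPTP plus exercise libraries, at 5.93, 1.64 and 12.5 FPKM in MPTP libraries and at 5.30, 2.97 and 15.6 FPKM in vehicle libraries. Each group held low and high libraries of both genes, and 3 of 10 dopaminergic markers, Slc6a3 among them, were listed at 0 in at least 1 library. The markers did not all have the same order. In vehicle replicates 1 to 3, Slc18a2 was at 8.38, 4.73 and 3.62 FPKM and Ddc at 9.34, 5.05 and 4.61 FPKM, lowest where Th and Slc6a3 were highest. In MPTP plus exercise, Slc18a2 was highest in replicate 2 (9.64 FPKM), where Slc6a3 was listed at 0. In MPTP all 4 genes were lowest in replicate 2 and highest in replicate 3. Summed markers of excitatory neurons of cortex and hippocampus, which lie outside the substantia nigra, spanned 278 to 739 FPKM in MPTP plus exercise, 349.6 to 905 FPKM in MPTP and 152 to 567 FPKM in vehicle libraries. Summed markers of the choroid plexus, which secretes cerebrospinal fluid, spanned 21.4 to 947 FPKM in MPTP plus exercise, 952 to 2066 FPKM in MPTP and 37.8 to 344 FPKM in vehicle libraries. The markers of other brain regions thus differed between libraries, within as well as between groups. In bulk tissue, fewer cells of a type and less RNA per cell cannot be told apart.

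Levels differed widely between members. In descending order of mean FPKM over the 9 libraries they were Fndc5 (38.3), Ntrk2 (33.2), Vegfa (12.9), Ppargc1a (9.63), Manf (8.68), Gfra1 (7.21), Ntrk3 (5.10), Bdnf (3.36), Ntf3 (0.544) and Gdnf (0.156). Ntrk2 exceeded Vegfa, Vegfa exceeded Ppargc1a and Bdnf exceeded Ntf3 in 9 of 9 libraries. Other neighbours changed places: Fndc5 exceeded Ntrk2 in 7 of 9 libraries, Ppargc1a exceeded Manf in 6, Manf exceeded Gfra1 in 5, Gfra1 exceeded Ntrk3 in 7, Ntrk3 exceeded Bdnf in 8 and Ntf3 exceeded Gdnf in 7. Per length, both Trk receptors were at a higher mean level than their ligands. The coefficient of variation over all 9 libraries was smallest for Manf (10.1%) and Ppargc1a (10.2%) and largest for Ntf3 (92.2%).

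**Figure D1:**
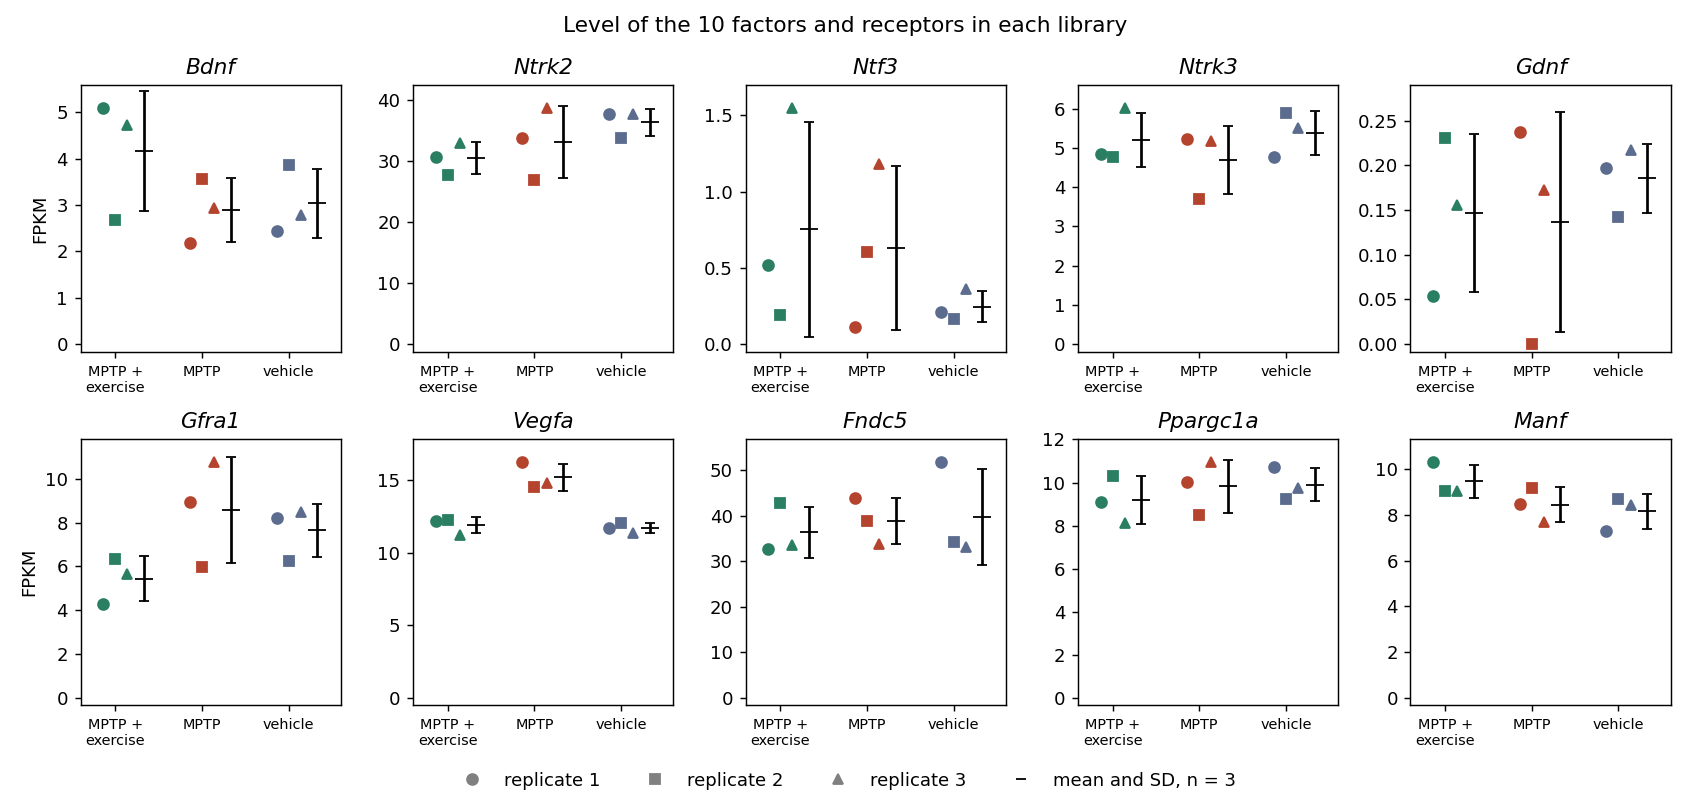
FPKM (y axis, linear) of each member in the 3 libraries of each group (x axis, MPTP plus exercise, MPTP and vehicle), with symbols for the replicate number and a bar for the mean and SD (n = 3). In the Vegfa panel the MPTP libraries (14.5 to 16.2 FPKM) lie above all libraries of both other groups.

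Vegfa encodes the main angiogenic ligand of brain vessels (chromosome 17, 46016993 to 46032369, minus strand, GRCm38, GENCODE M21). It was at 12.2, 12.3 and 11.2 FPKM in MPTP plus exercise libraries, at 16.2, 14.5 and 14.8 FPKM in MPTP libraries and at 11.7, 12.03 and 11.4 FPKM in vehicle libraries. All 3 MPTP libraries were above the 6 others, and the MPTP plus exercise and vehicle libraries overlapped. The mean in MPTP plus exercise was 0.783 times that in MPTP (log2 fold change −0.33, SE 0.076, 95% interval −0.50 to −0.15, limma adjusted p = 0.99988, rank 32 of 15997 by p). The mean in MPTP was 1.30 times that in vehicle (log2 fold change 0.35, SE 0.076, 95% interval 0.17 to 0.52, limma adjusted p = 0.637, rank 36). Neither passed. MPTP plus exercise against vehicle gave 0.020 (95% interval −0.15 to 0.19, limma adjusted p = 0.964). The exact two-sided permutation p was 0.1 for MPTP plus exercise against MPTP, 0.7 for MPTP plus exercise against vehicle and 0.1 for MPTP against vehicle. With 20 splits of 6 libraries, 0.1 is the smallest p possible. The comparisons that gave it share the MPTP libraries. The spread within groups was small, with an SD of 0.064 on the log2 scale, and 4.31% of tested genes had a smaller one.

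Markers of other cell types also differed between the groups. Choroid plexus markers, whose sums are given above, were lower in MPTP plus exercise than in MPTP for 8 of 8 genes and higher in MPTP than in vehicle for 8 of 8, with none listed at 0. MPTP plus exercise replicates 1 and 3 had 947 and 796 FPKM of these markers with 12.2 and 11.2 FPKM of Vegfa. MPTP replicate 2, the lowest of its group in both, had 952 FPKM of the markers with 14.5 FPKM of Vegfa. MPTP plus exercise replicate 2 was the lowest of its group in the markers (21.4 FPKM) and the highest in Vegfa (12.3 FPKM). Vehicle replicate 3 was the highest of its group in the markers (344 FPKM) and the lowest in Vegfa (11.4 FPKM). In a fit that added a choroid plexus score, chosen after the data were seen, the Vegfa differences were −0.36 between MPTP plus exercise and MPTP and 0.39 between MPTP and vehicle (limma adjusted p = 0.588 and 0.312). The score was the mean log2(FPKM + 1) of the 8 markers, not their sum, most of which was Ttr. The marker sums of the MPTP libraries lay above those of all other libraries, but single markers overlapped. Kl, Folr1, Kcne2, Otx2 and Sostdc1 were higher in MPTP plus exercise replicate 3 than in MPTP replicate 2, and Ttr, Clic6 and Aqp1 were lower. All 8 markers differed between the groups on average, so this fit cannot fully separate the markers from the groups. Summed endothelial markers spanned 49.1 to 61.3 FPKM in MPTP plus exercise, 66.2 to 71.8 FPKM in MPTP and 55.7 to 60.6 FPKM in vehicle libraries, with none listed at 0. Of 6 endothelial markers 0 were higher in MPTP plus exercise than in MPTP and 5 higher in MPTP than in vehicle. The part of choroid plexus cells or vessel cells in the Vegfa values was not tested.

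Flt1 and Kdr are receptors of VEGF-A that endothelial cells make. Flt1, the high-affinity receptor VEGFR1, was at 4.65, 5.65 and 5.10 FPKM in MPTP plus exercise libraries, at 6.54, 5.93 and 6.98 FPKM in MPTP libraries and at 6.63, 6.56 and 6.29 FPKM in vehicle libraries. The running mice lay below both other groups, but the differences did not pass (log2 fold change −0.29 against MPTP and −0.29 against vehicle, limma adjusted p = 0.99988 and 0.753). Kdr, the main signalling receptor VEGFR2, was at 1.57, 1.69 and 1.80 FPKM in MPTP plus exercise libraries, at 2.39, 2.22 and 2.23 FPKM in MPTP libraries and at 1.79, 2.28 and 1.81 FPKM in vehicle libraries. Here the running mice lay below MPTP (log2 fold change −0.29, limma adjusted p = 0.99988) and overlapped vehicle (−0.14). Of 9 tested genes of the VEGF family and receptors, Vegfa included, 2 were higher and 7 lower in MPTP plus exercise than in MPTP, and 0 passed (3 lower at an unadjusted p under 0.05, against 2.89% of all tested genes, and 4 lower with groups apart, against 5.36%). The median was −0.12, against −0.012 over all tested genes. In MPTP plus exercise against vehicle 4 were higher and 5 lower (median −0.013, all genes −0.022), and in MPTP against vehicle 5 were higher and 4 lower (median 0.039, all genes −0.0059), with 0 passing in either. Pgf, placental growth factor, was named by its p within the VEGF list in MPTP against vehicle, at 1.19 ± 0.190 FPKM in MPTP and 0.930 ± 0.211 FPKM in vehicle libraries (SD, n = 3 each), and did not pass.

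Vegfa is also a target of the hypoxia response. Of 17 tested hypoxia-induced genes, Vegfa included, 7 were higher in MPTP plus exercise than in MPTP (median −0.0044, all genes −0.012). Against vehicle, 12 were higher in MPTP plus exercise (median 0.057, all genes −0.022) and 14 in MPTP (median 0.073, all genes −0.0059). In each comparison 0 passed. P4ha1, a collagen prolyl hydroxylase, was at 11.99, 9.74 and 10.7 FPKM in MPTP plus exercise libraries, at 9.05, 9.42 and 8.67 FPKM in MPTP libraries and at 9.18, 9.42 and 8.92 FPKM in vehicle libraries. The running mice lay above both other groups (log2 fold changes 0.23 and 0.21, limma adjusted p = 0.99988 against MPTP and 0.753 against vehicle). The oxygen sensor Egln1 was at 18.3 ± 0.412 FPKM in MPTP plus exercise and 20.4 ± 1.16 FPKM in MPTP libraries (SD, n = 3 each). The glycolytic enzyme Pgk1 was at 169 ± 4.23 FPKM in MPTP plus exercise and 145 ± 17.1 FPKM in vehicle libraries. Ankrd37 was at 1.97 ± 0.124 FPKM in MPTP and 1.46 ± 0.553 FPKM in vehicle libraries, and the mitophagy receptor Bnip3 at 35.1 ± 4.89 FPKM in MPTP and 30.9 ± 0.638 FPKM in vehicle libraries.

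Bdnf, the ligand of TrkB (chromosome 2, 109674700 to 109727007, plus strand), was at 5.08, 2.67 and 4.73 FPKM in MPTP plus exercise libraries, at 2.19, 3.56 and 2.93 FPKM in MPTP libraries and at 2.45, 3.86 and 2.79 FPKM in vehicle libraries. MPTP plus exercise replicates 1 and 3 were the highest of the 9, and replicate 2 lay inside the range of the other groups. The mean was 1.44 times that of MPTP (log2 fold change 0.39, 95% interval −0.12 to 0.89, limma adjusted p = 0.99988) and 1.37 times that of vehicle (0.34, 95% interval −0.17 to 0.84, limma adjusted p = 0.770). The exact permutation p was 0.3 for each. MPTP against vehicle gave −0.050 (95% interval −0.55 to 0.45, limma adjusted p = 0.994, exact permutation p = 0.8). Of its exonic bases 14.4% also lie in the antisense gene Gm45346, which was at 0 to 0.224 FPKM, and the sources used here do not say whether the counting used strand.

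Cortical and hippocampal excitatory markers were set beside Bdnf. Their sums were 739, 278 and 698 FPKM in MPTP plus exercise replicates 1 to 3, 355, 905 and 349.6 FPKM in MPTP replicates and 152, 567 and 471 FPKM in vehicle replicates. Their order was that of Bdnf in the MPTP plus exercise and vehicle groups. In MPTP the highest library was the same, but replicate 1 was lowest in Bdnf and replicate 3 lowest in the markers. MPTP plus exercise replicates 1 and 3 had more of them than any other library except MPTP replicate 2, whose Bdnf was 3.56 FPKM. Of the 10 markers 10 were higher in MPTP plus exercise than in MPTP, 10 higher in MPTP plus exercise than in vehicle and 7 higher in MPTP than in vehicle, and none was listed at 0. The Bdnf difference between MPTP and vehicle was −0.050. Bdnf is also induced by neuronal activity, and summed activity-induced genes, which include Fos and Arc, were 178, 76.6 and 74.9 FPKM in MPTP plus exercise, 43.0, 91.7 and 72.4 FPKM in MPTP and 47.1, 175 and 119 FPKM in vehicle replicates. The part of either list in the Bdnf values was not tested.

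**Figure D2:**
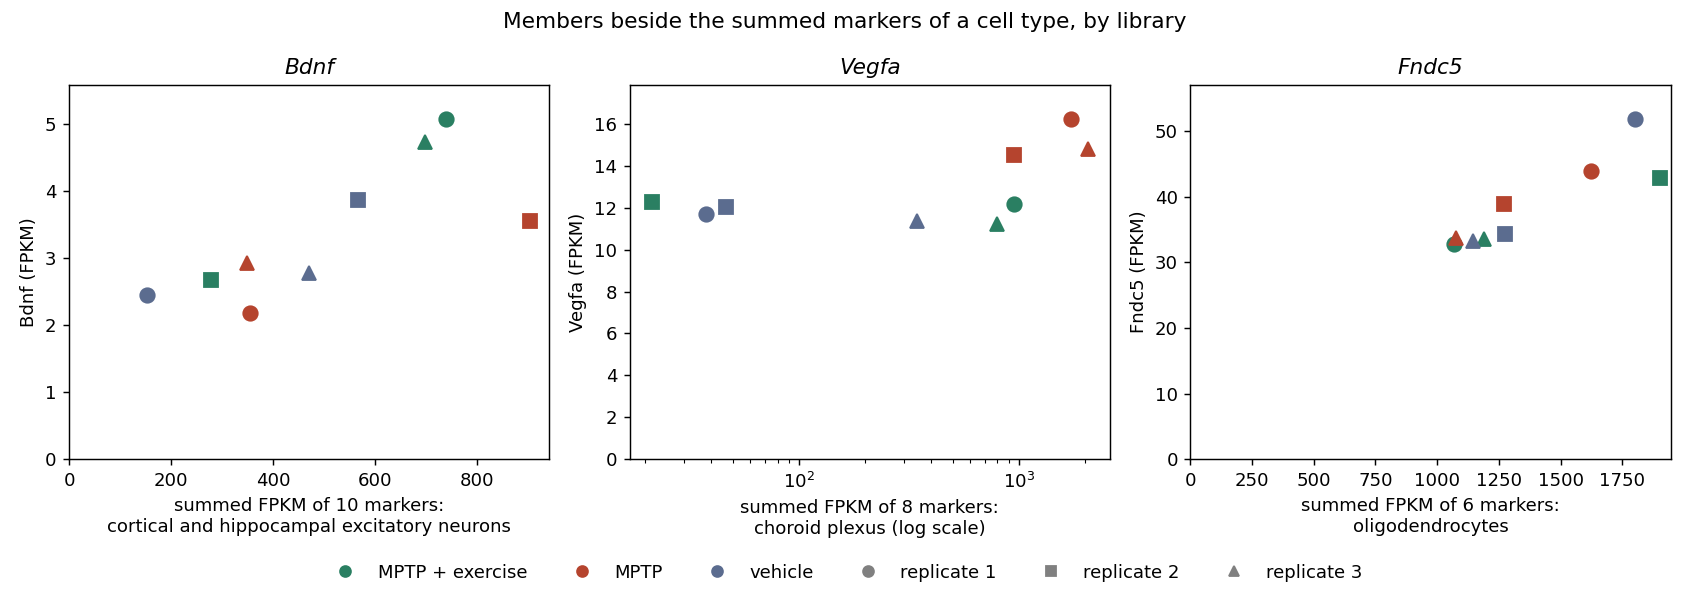
FPKM of Bdnf, Vegfa and Fndc5 (y axes, linear) against the summed FPKM of markers of a cell type (x axes, logarithmic for the choroid plexus), 1 point per library, coloured by group with symbols for the replicate number. MPTP plus exercise replicates 1 and 3 combine the highest Bdnf (5.08 and 4.73 FPKM) with 739 and 698 FPKM of cortical and hippocampal markers, and vehicle replicate 1 combines the highest Fndc5 (51.8 FPKM) with 1804 FPKM of oligodendrocyte markers.

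Ntf3, neurotrophin-3 (chromosome 6, 126101412 to 126166910, minus strand), was low and uneven. It was at 0.520, 0.194 and 1.55 FPKM in MPTP plus exercise libraries, at 0.109, 0.607 and 1.18 FPKM in MPTP libraries and at 0.212, 0.165 and 0.361 FPKM in vehicle libraries. Replicate 3 was the highest of each group, and the groups overlapped in every comparison. The log2 fold changes were 0.082 between MPTP plus exercise and MPTP (95% interval −0.61 to 0.77), 0.42 between MPTP plus exercise and vehicle (95% interval −0.27 to 1.11) and 0.34 between MPTP and vehicle (95% interval −0.35 to 1.03). Their limma adjusted p were 0.99988, 0.778 and 0.991, and the exact permutation p were 0.8, 0.3 and 0.4. C1ql2, a marker of dentate gyrus granule cells in the excitatory list, chosen after its values were seen, was at 5.05, 2.54 and 9.90 FPKM in MPTP plus exercise libraries, at 2.88, 1.70 and 5.46 FPKM in MPTP libraries and at 4.44, 4.29 and 1.91 FPKM in vehicle libraries.

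Gdnf (chromosome 15, 7810846 to 7837575, plus strand) was near the floor of the table. It was at 0.0538, 0.230 and 0.155 FPKM in MPTP plus exercise libraries, at 0.237, 0 and 0.172 FPKM in MPTP libraries and at 0.197, 0.143 and 0.217 FPKM in vehicle libraries, where MPTP replicate 2 is listed at 0. The groups overlapped throughout, with an exact permutation p of 1.0 for MPTP plus exercise against MPTP, 0.7 for MPTP plus exercise against vehicle and 0.7 for MPTP against vehicle. A difference in Gdnf was not detectable at these levels.

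Manf (chromosome 9, 106838312 to 106891979, minus strand) was at 10.3, 9.04 and 9.03 FPKM in MPTP plus exercise libraries, at 8.47, 9.18 and 7.67 FPKM in MPTP libraries and at 7.29, 8.71 and 8.43 FPKM in vehicle libraries. The running mice lay above all vehicle libraries and overlapped the MPTP libraries through MPTP replicate 2. In each group the library highest in Manf was also the highest in the summed cortical and hippocampal markers given above (739 FPKM in MPTP plus exercise replicate 1, 905 FPKM in MPTP replicate 2 and 567 FPKM in vehicle replicate 2). Of those 10 markers 10 were higher in MPTP plus exercise than in vehicle, and their part in the Manf values was not tested. The log2 fold change against vehicle was 0.19 (1.16 times as high, 95% interval −0.031 to 0.42, limma adjusted p = 0.753, exact permutation p = 0.1, the smallest possible). Against MPTP it was 0.15 (95% interval −0.077 to 0.37, limma adjusted p = 0.99988, exact permutation p = 0.3). MPTP against vehicle gave 0.046 (95% interval −0.18 to 0.27, limma adjusted p = 0.993, exact permutation p = 0.6). Of its exonic bases 9.25% are shared with other genes, so its value carries that uncertainty. Among them are Dcaf1 on the opposite strand (146 bases, 3.13 to 4.42 FPKM) and Rbm15b on the same strand (14 bases, 5.27 to 7.47 FPKM).

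Manf is induced with the chaperones of the endoplasmic reticulum in the unfolded protein response. Of 20 tested genes of that list, Manf included, 11 were higher in MPTP plus exercise than in MPTP (median 0.018, all genes −0.012). Against vehicle 14 were higher in MPTP plus exercise (median 0.043, all genes −0.022) and 14 in MPTP (median 0.043, all genes −0.0059). In each comparison 0 passed. Between MPTP plus exercise and vehicle, groups were apart for 3 of these genes on the higher side, Manf included, against 6.38% of all tested genes. They were apart for 2 on the lower side, against 9.2%. Hspa5, the chaperone BiP, was at 48.9, 43.2 and 42.4 FPKM in MPTP plus exercise and 39.8, 39.6 and 36.5 FPKM in vehicle libraries, which did not overlap (log2 fold change 0.21, limma adjusted p = 0.753). Pdia6, a disulfide isomerase, was at 22.9 ± 0.879 FPKM in MPTP plus exercise and 20.4 ± 0.486 FPKM in vehicle libraries (SD, n = 3 each).

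Atf4, a transcription factor of the stress response, was at 36.6, 36.2 and 26.6 FPKM in MPTP plus exercise libraries, at 42.3, 49.2 and 45.1 FPKM in MPTP libraries and at 39.8, 41.2 and 25.1 FPKM in vehicle libraries. Its MPTP libraries lay above both other groups (log2 fold change −0.46 for MPTP plus exercise against MPTP and 0.39 for MPTP against vehicle, limma adjusted p = 0.99988 and 0.991). Cdnf, the paralog of Manf, was at 0.471 ± 0.0795 FPKM in MPTP plus exercise and 0.672 ± 0.112 FPKM in MPTP libraries, and the cochaperone Dnajc3 at 14.2 ± 1.44 FPKM in MPTP and 12.8 ± 0.839 FPKM in vehicle libraries (SD, n = 3 each). Neither passed.

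Fndc5, the irisin precursor (chromosome 4, 129136999 to 129144593, plus strand), was the member with the highest mean. It was at 32.8, 42.9 and 33.5 FPKM in MPTP plus exercise libraries, at 43.9, 38.9 and 33.8 FPKM in MPTP libraries and at 51.8, 34.3 and 33.2 FPKM in vehicle libraries. Each group held high and low libraries. The log2 fold changes were −0.094 between MPTP plus exercise and MPTP (95% interval −0.52 to 0.33), −0.10 between MPTP plus exercise and vehicle (95% interval −0.53 to 0.32) and −0.010 between MPTP and vehicle (95% interval −0.43 to 0.41). Their limma adjusted p were 0.99988, 0.914 and 0.9997, and the exact permutation p were 0.5, 0.6 and 0.9. Summed markers of oligodendrocytes, the myelin-forming cells, were 1070.1, 1904 and 1189.6 FPKM in MPTP plus exercise, 1622, 1270.1 and 1076 FPKM in MPTP and 1804, 1276 and 1145 FPKM in vehicle replicates. The 3 libraries with the most of these markers, 1 in each group, were also the 3 with the most Fndc5, and the part of these cells in the Fndc5 values was not tested.

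Other secreted factors tied to exercise were followed in a list of 20 genes, which holds Bdnf, Vegfa and Fndc5. Of these, 13 were tested, and Il6, Fgf21, Il15, Lif, Mstn, Adipoq and Lep were under the filter. In MPTP plus exercise 3 were higher and 10 lower than in MPTP (median −0.079, all genes −0.012), and 7 higher and 6 lower than in vehicle (median 0.0083, all genes −0.022). In MPTP 7 were higher and 6 lower than in vehicle (median 0.0031, all genes −0.0059). In each comparison 0 passed. Igf1, insulin-like growth factor 1, was at 1.11, 0.768 and 1.04 FPKM in MPTP plus exercise libraries, at 1.001, 1.12 and 1.11 FPKM in MPTP libraries and at 1.60, 1.1002 and 2.04 FPKM in vehicle libraries. Its log2 fold change against vehicle was −0.38 in MPTP plus exercise and −0.30 in MPTP (limma adjusted p = 0.753 and 0.991). Clu, the extracellular chaperone clusterin, was at 172 ± 27.3 FPKM in MPTP plus exercise, 191 ± 11.3 FPKM in MPTP and 166 ± 11.5 FPKM in vehicle libraries (SD, n = 3 each). The protease Ctsb was at 84.0 ± 6.71 FPKM in MPTP plus exercise and 87.8 ± 6.84 FPKM in MPTP libraries, and the matrix protein Dcn at 4.32 ± 1.99 FPKM in MPTP plus exercise and 3.47 ± 1.1002 FPKM in vehicle libraries.

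Gfra1 had the lowest unadjusted p of the 3 receptors in the set (chromosome 19, 58235604 to 58455909, minus strand). It was at 4.30, 6.34 and 5.67 FPKM in MPTP plus exercise libraries, at 8.94, 5.99 and 10.8 FPKM in MPTP libraries and at 8.19, 6.23 and 8.50 FPKM in vehicle libraries. The running mice were lower on average, but replicate 2 of MPTP and of vehicle lay below MPTP plus exercise replicate 2. The log2 fold change against MPTP was −0.55 (0.635 times as high, 95% interval −1.02 to −0.081, limma adjusted p = 0.99988, exact permutation p = 0.2). Against vehicle it was −0.43 (0.712 times as high, 95% interval −0.90 to 0.042, limma adjusted p = 0.753, exact permutation p = 0.2). MPTP against vehicle gave 0.12 (95% interval −0.35 to 0.59, limma adjusted p = 0.993, exact permutation p = 0.6). Of its exonic bases 7.60% also lie in the antisense gene Gm16277, which was at 0 to 0.174 FPKM.

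Markers of dopaminergic, thalamic and striatal neurons were set beside Gfra1. Summed dopaminergic markers were 51.4, 85.0 and 79.9 FPKM in MPTP plus exercise, 84.7, 45.5 and 96.7 FPKM in MPTP and 86.0, 53.8 and 71.3 FPKM in vehicle replicates. Their order was that of Gfra1 in the MPTP plus exercise and MPTP groups, and in vehicle the lowest library was the same. Aldh1a1, which other cells also make, is a large share of the sum, at 27.6, 46.8 and 30.7 FPKM in MPTP plus exercise libraries, at 42.1, 34.2 and 30.4 FPKM in MPTP libraries and at 43.0, 31.2 and 22.1 FPKM in vehicle libraries. Slc6a3, given above, did not have the order of Gfra1 in MPTP plus exercise, where it was listed at 0 in replicate 2, the replicate highest in Gfra1. Summed thalamic markers were 119.7, 129 and 112 FPKM in MPTP plus exercise, 119, 59.7 and 205 FPKM in MPTP and 256, 99.9 and 181 FPKM in vehicle replicates. Their order was that of Gfra1 in the MPTP group. In vehicle only the lowest library was the same, and in MPTP plus exercise only the highest. Summed striatal markers were 49.7, 129.6 and 57.6 FPKM in MPTP plus exercise, 131.8, 40.1 and 60.0 FPKM in MPTP and 115, 42.1 and 106 FPKM in vehicle replicates. Their order was that of Gfra1 in MPTP plus exercise, and in MPTP and vehicle the lowest library was the same. The part of these cells in the Gfra1 values was not tested. As a description over 9 libraries of 3 groups, Pearson r of log2(FPKM + 1) was −0.86 between Gfra1 and Manf and −0.80 between Gfra1 and Bdnf.

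Ret, the kinase that carries the GDNF signal and is named as the partner of Gfra1, was at 2.77, 6.93 and 4.48 FPKM in MPTP plus exercise libraries, at 5.26, 3.68 and 8.34 FPKM in MPTP libraries and at 5.91, 3.80 and 4.88 FPKM in vehicle libraries. The groups overlapped. Of 7 tested genes of the GDNF family and receptors, 4 were higher in MPTP plus exercise than in MPTP (median 0.013, all genes −0.012). Against vehicle 3 were higher in MPTP plus exercise (median −0.084, all genes −0.022) and 3 in MPTP (median −0.0024, all genes −0.0059). In each comparison 0 passed. Nrtn, neurturin, a relative of GDNF that acts through GFRα2, was at 1.34, 1.04 and 1.18 FPKM in MPTP plus exercise libraries, at 0.717, 0.915 and 0.859 FPKM in MPTP libraries and at 0.703, 0.883 and 0.915 FPKM in vehicle libraries. The running mice lay above both other groups (log2 fold changes 0.26 and 0.25, limma adjusted p = 0.99988 against MPTP and 0.753 against vehicle). The receptor subunit Gfra4 was at 8.31 ± 2.89 FPKM in MPTP plus exercise, 7.20 ± 1.95 FPKM in MPTP and 5.89 ± 1.001 FPKM in vehicle libraries (SD, n = 3 each). The sorting receptor Sorl1 was at 29.1 ± 2.01 FPKM in MPTP plus exercise and 26.8 ± 2.49 FPKM in MPTP libraries, and Ncam1, an alternative GDNF receptor, at 30.8 ± 6.25 FPKM in MPTP and 35.3 ± 3.30 FPKM in vehicle libraries.

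Ntrk2 encodes TrkB and, in astrocytes, mostly a truncated form without the kinase (chromosome 13, 58806569 to 59133970, plus strand). It was at 30.6, 27.7 and 32.9 FPKM in MPTP plus exercise libraries, at 33.7, 26.8 and 38.5 FPKM in MPTP libraries and at 37.6, 33.7 and 37.6 FPKM in vehicle libraries. The running mice lay below all vehicle libraries and inside the MPTP range. The log2 fold change against vehicle was −0.25 (0.837 times as high, 95% interval −0.55 to 0.049, limma adjusted p = 0.759, exact permutation p = 0.1, the smallest possible). Against MPTP it was −0.10 (95% interval −0.41 to 0.20, limma adjusted p = 0.99988, exact permutation p = 0.6). MPTP against vehicle gave −0.15 (95% interval −0.45 to 0.15, limma adjusted p = 0.991, exact permutation p = 0.6). The values are per gene and do not separate the kinase form from the truncated one. Summed astrocyte markers were 382, 349 and 377 FPKM in MPTP plus exercise, 333, 345 and 314 FPKM in MPTP and 286, 354 and 423 FPKM in vehicle replicates.

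Ntrk3, the receptor TrkC (chromosome 7, 78175959 to 78738012, minus strand), was at 4.84, 4.77 and 6.004 FPKM in MPTP plus exercise libraries, at 5.22, 3.70 and 5.16 FPKM in MPTP libraries and at 4.78, 5.88 and 5.51 FPKM in vehicle libraries. The groups overlapped in every comparison. The log2 fold changes were 0.13 between MPTP plus exercise and MPTP (95% interval −0.18 to 0.44), −0.044 between MPTP plus exercise and vehicle (95% interval −0.35 to 0.27) and −0.17 between MPTP and vehicle (95% interval −0.48 to 0.14). Their limma adjusted p were 0.99988, 0.955 and 0.991, and the exact permutation p were 0.6, 0.9 and 0.4. MPTP replicate 2 was the lowest of the 9 libraries in both Ntrk2 and Ntrk3.

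The other neurotrophins, receptors and processing enzymes held no gene past the test either. Of 13 tested genes of that list, 7 were higher in MPTP plus exercise than in MPTP (median 0.00045, all genes −0.012). Against vehicle 6 were higher in MPTP plus exercise (median −0.044, all genes −0.022) and 5 in MPTP (median −0.030, all genes −0.0059). Ngfr, the pan-neurotrophin receptor p75, was at 0.699, 1.19 and 0.797 FPKM in MPTP plus exercise libraries, at 1.36, 1.43 and 1.13 FPKM in MPTP libraries and at 1.31, 1.096 and 1.07 FPKM in vehicle libraries. Furin, a protease that cleaves proneurotrophins, was at 2.37, 2.39 and 2.71 FPKM in MPTP plus exercise libraries, at 3.01, 2.71 and 3.41 FPKM in MPTP libraries and at 2.79, 2.79 and 2.86 FPKM in vehicle libraries. The Furin values of running mice lay below both other groups, though by little, with 2.707 FPKM in MPTP plus exercise replicate 3 and 2.711 FPKM in MPTP replicate 2 (log2 fold changes −0.21 and −0.13, limma adjusted p = 0.99988 against MPTP and 0.770 against vehicle). Sorcs2, a receptor of proneurotrophins, was at 5.45 ± 1.34 FPKM in MPTP and 6.75 ± 1.82 FPKM in vehicle libraries (SD, n = 3 each).

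Among 22 tested genes that carry the Trk and Ret signal, 10 were higher and 12 lower in MPTP plus exercise than in MPTP (median −0.014, all genes −0.012). In MPTP plus exercise 5 were higher and 17 lower than in vehicle (median −0.082, all genes −0.022), and in MPTP 6 were higher and 16 lower than in vehicle (median −0.061, all genes −0.0059). In each comparison 0 passed. Shc3, a neuronal adaptor of Trk receptors, was at 9.45, 6.23 and 5.29 FPKM in MPTP plus exercise libraries, at 7.59, 4.49 and 7.64 FPKM in MPTP libraries and at 11.998, 9.29 and 10.2 FPKM in vehicle libraries. MPTP lay below vehicle (log2 fold change −0.63, SE 0.23, limma adjusted p = 0.991), and MPTP plus exercise overlapped vehicle (−0.55, limma adjusted p = 0.753). Plcg1, the phospholipase that binds activated Trk, was at 8.59, 8.88 and 9.29 FPKM in MPTP plus exercise libraries, at 10.9, 9.06 and 11.1 FPKM in MPTP libraries and at 10.9, 10.1 and 11.4 FPKM in vehicle libraries. The running mice lay below vehicle (log2 fold change −0.25, limma adjusted p = 0.753) and overlapped MPTP. The adaptor Shc1 was at 2.14 ± 0.0676 FPKM in MPTP plus exercise and 2.53 ± 0.0901 FPKM in MPTP libraries, and the Trk scaffold Kidins220 at 33.3 ± 9.23 FPKM in MPTP and 40.3 ± 1.11 FPKM in vehicle libraries (SD, n = 3 each).

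Ppargc1a, encoding PGC-1α (chromosome 5, 51454250 to 51567726, minus strand), was at 9.08, 10.3 and 8.10 FPKM in MPTP plus exercise libraries, at 10.03, 8.49 and 10.9 FPKM in MPTP libraries and at 10.7, 9.26 and 9.73 FPKM in vehicle libraries. The groups overlapped in every comparison. The log2 fold changes were −0.089 between MPTP plus exercise and MPTP (95% interval −0.36 to 0.18), −0.10 between MPTP plus exercise and vehicle (95% interval −0.37 to 0.16) and −0.015 between MPTP and vehicle (95% interval −0.28 to 0.25). Their limma adjusted p were 0.99988, 0.849 and 0.997, and the exact permutation p were 0.6, 0.4 and 1.0.

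The PGC-1 network list holds nuclear receptor partners and mitochondrial genes. Of 22 tested genes 11 were higher in MPTP plus exercise than in MPTP (median 5.7e-05, all genes −0.012). Against vehicle 9 were higher in MPTP plus exercise (median −0.030, all genes −0.022) and 9 in MPTP (median −0.022, all genes −0.0059). In each comparison 0 passed. Ucp2, a mitochondrial carrier, was at 2.35, 2.75 and 2.98 FPKM in MPTP plus exercise libraries, at 3.08, 3.24 and 3.78 FPKM in MPTP libraries and at 3.04, 2.28 and 2.48 FPKM in vehicle libraries. Its MPTP libraries lay above both other groups (limma adjusted p = 0.99988 for MPTP plus exercise against MPTP and 0.991 for MPTP against vehicle). Cycs, cytochrome c, was at 46.3 ± 5.54 FPKM in MPTP plus exercise and 37.8 ± 3.06 FPKM in vehicle libraries, and Tfb2m, a mitochondrial transcription factor, at 7.11 ± 0.353 FPKM in MPTP plus exercise and 6.31 ± 0.0235 FPKM in vehicle libraries (SD, n = 3 each). The mitochondrial DNA polymerase Polg was at 3.52 ± 0.149 FPKM in MPTP plus exercise and 3.97 ± 0.313 FPKM in MPTP libraries, and the deacetylase Sirt1 at 2.63 ± 0.296 FPKM in MPTP and 3.15 ± 0.558 FPKM in vehicle libraries.

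**Figure D3:**
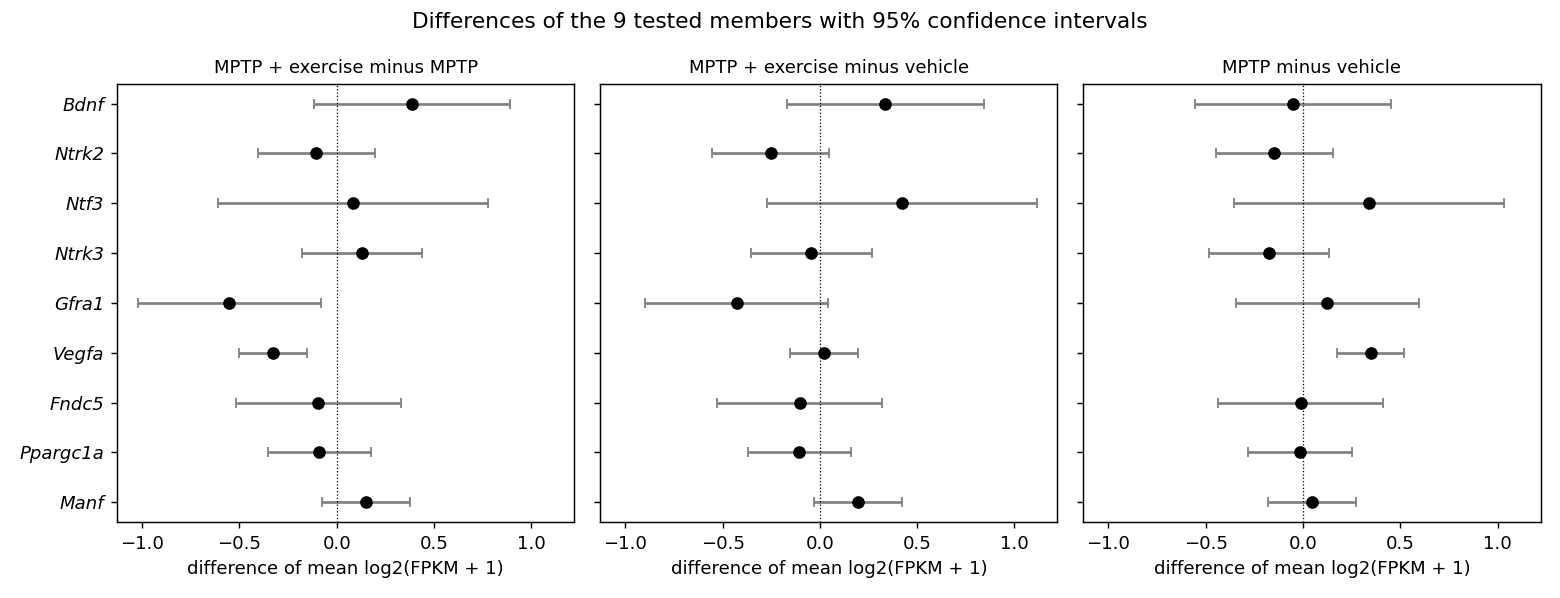
Difference of mean log2(FPKM + 1) between groups (x axis) for the 9 tested members (y axis), with 95% confidence intervals from limma as bars, for MPTP plus exercise minus MPTP, MPTP plus exercise minus vehicle and MPTP minus vehicle. Before adjustment over all genes, the Vegfa interval excludes 0 for MPTP plus exercise minus MPTP (−0.50 to −0.15) and for MPTP minus vehicle (0.17 to 0.52), and the Gfra1 interval for MPTP plus exercise minus MPTP (−1.02 to −0.081).

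**Figure D4:**
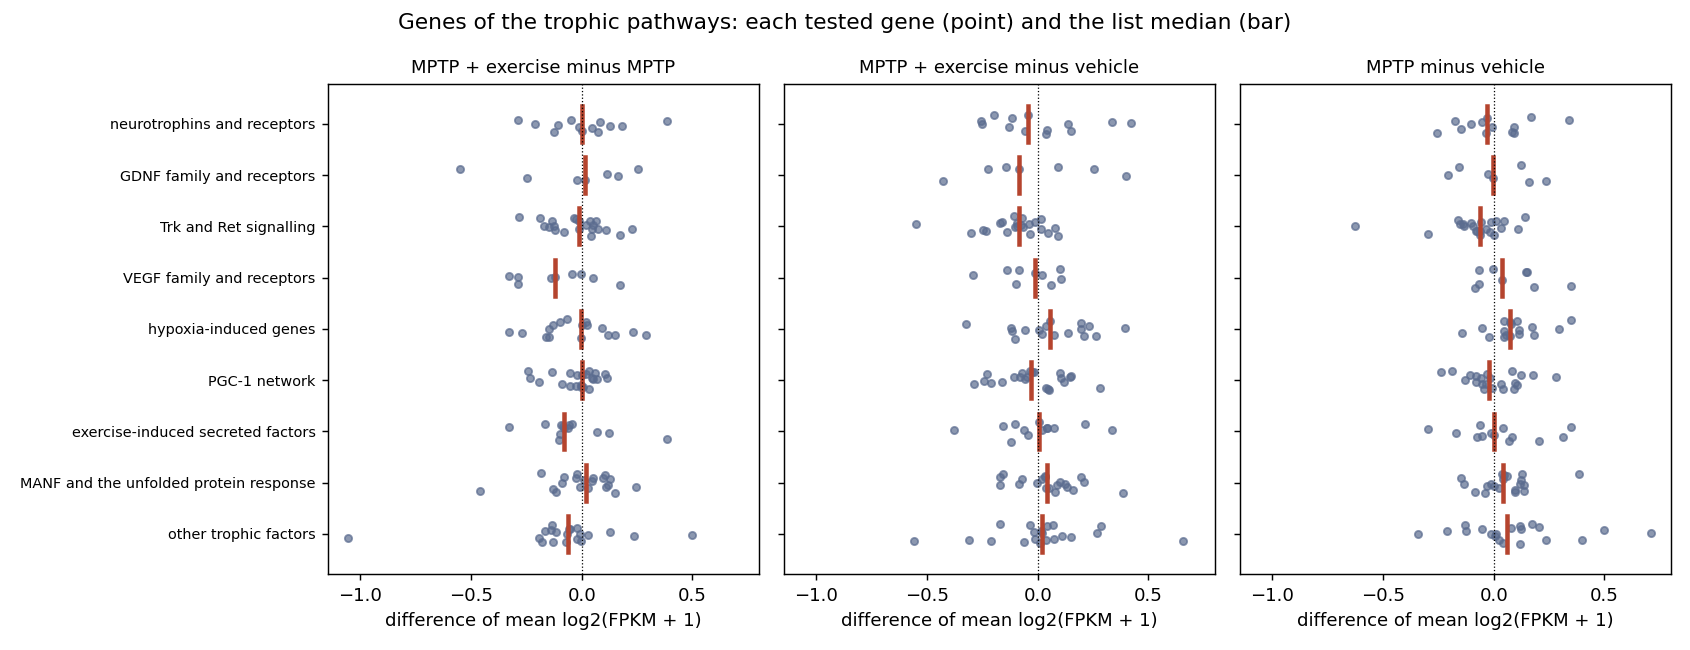
Difference of mean log2(FPKM + 1) between groups (x axis) for every tested gene (points) of the pathway lists (y axis), with the list median as a bar, for the same 3 comparisons. The medians lie between −0.12 (VEGF family, MPTP plus exercise minus MPTP) and 0.073 (hypoxia-induced genes, MPTP minus vehicle), and no point passed the test.

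Protein-coding genes with a near-parallel course over the 9 libraries were ranked by Pearson r of log2(FPKM + 1), as a description of libraries that share groups and tissue mix. The closest to Vegfa were Igfbp2, Bbs9 and Ell3 (0.94 to 0.96). Igfbp2, which binds insulin-like growth factors, was at 14.6, 15.2 and 14.4 FPKM in MPTP plus exercise libraries, at 26.6, 26.8 and 24.0 FPKM in MPTP libraries and at 13.1, 14.1 and 12.7 FPKM in vehicle libraries, with the MPTP libraries above both other groups. The closest to Bdnf were Hs3st4, Tspan13 and Pgm2l1 (0.95 to 0.97), to Ntf3 Kctd6, Itga4 and Fkbp5 (0.94 to 0.95), to Manf Crlf2, Snrnp27 and Inip (0.94 to 0.96) and to Fndc5 Tmbim1, Olig1 and Prim2 (0.97 to 0.98). Olig1, a transcription factor of oligodendrocytes, was at 41.9, 60.2 and 45.6 FPKM in MPTP plus exercise libraries, at 55.5, 50.1 and 43.8 FPKM in MPTP libraries and at 66.5, 45.5 and 44.9 FPKM in vehicle libraries, highest in the library with the most Fndc5. Among receptors, the closest to Ntrk2 were Zfp462, Ptprz1 and Xpr1 (0.96 to 0.98), to Ntrk3 Swt1, Med14 and Cdc7 (0.97 to 0.98) and to Gfra1 Adamts16, Appl2 and Kirrel (0.95 to 0.97). The closest to Ppargc1a were Zfp974, Rap1gap and Cntn6 (0.94 to 0.96).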

How the data were processed

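FPKM per gene were used as the authors deposited them. Per the labels' protocols, mRNA was captured with magnetic beads before Illumina NovaSeq6000 sequencing. The submitters' processing notes list the tools bcl2fastq, HTSeq and DESeq2, with no version, and the GRCm38 build. The aligner, the tool behind the FPKM and the use of strand are not given here. Library totals were not used here, and the value of 1 fragment, read from the most frequent ratio between low values, differed by at most 1.21-fold between libraries. GENCODE M21 gave symbols and coordinates (55154 of 55335 genes matched), RefSeq the promoter windows.

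All 9 libraries entered 1 limma fit (eBayes with trend) on log2(FPKM + 1), a scale that understates the change of low genes. It covered 15997 genes averaging 0.5 FPKM or more, with two-sided p-values adjusted by Benjamini-Hochberg over all of them. Members also had an exact two-sided permutation test. The fit was tested on simulated data. Members, lists and tests were chosen with earlier results of these data known. Named genes are the members, the 2 other genes with the smallest p per list and comparison, and the 3 genes most like each member. Markers, Ret and C1ql2 are named besides.

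Replicate numbers have no stated meaning. Deviations from group means correlated between same-numbered libraries at 0.251, 0.33 and 0.105 for MPTP and vehicle, all over 0.1, so the blocked fit was read beside that comparison. They were −0.339, −0.134 and 0.247 for MPTP plus exercise and MPTP, and −0.265, 0.00692 and 0.241 for MPTP plus exercise and vehicle. Software was R 4.3.3, limma 3.58.1, Python 3.11.15, pandas 2.3.3, numpy 2.4.6, scipy 1.17.1 and matplotlib 3.10.9.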

Additional observations from a re-analysis of the deposited data

How the results depend on the processing

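The counts of calls and the log2 fold changes of the 9 tested members were recomputed under 18 other settings, 9 of which leave out 1 library. Gdnf entered the fit only with no filter, which leaves its fold changes as they are, and the pathway lists and permutation tests were not recomputed. No member passed the limma test in any setting or comparison. The count of all genes past it between MPTP plus exercise and MPTP was 0. It was 3 with no filter on level, 1 with FPKM scaled to equal sums, 1 with array weights, and 0 to 25 with 1 library left out: 25 without MPTP replicate 1, 2 without MPTP replicate 2, and 1 each without MPTP replicate 3 or MPTP plus exercise replicate 1 or 2. Between MPTP plus exercise and vehicle the count was 0, and 0 to 2 with 1 library left out: 2 each without vehicle replicate 1 or 2, and 1 each without MPTP plus exercise replicate 1 or 2. Between MPTP and vehicle it was 2. It was 0 with only those groups in the fit, 0 with the choroid plexus score added (chosen after seeing the data), and 0 to 32 with 1 library left out: 32 without MPTP replicate 1, 4 without vehicle replicate 1, 3 without vehicle replicate 2, 1 without vehicle replicate 3, and 0 without any other library. With the replicate block the counts were 0, 0 and 3 in the same order, and the block changed no call on a member.

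Of 27 differences of the tested members 15 kept their direction in these settings. For MPTP plus exercise against MPTP these include Vegfa (−0.38 to −0.28), Gfra1 (−0.76 to −0.39) and Bdnf (0.25 to 0.62), for MPTP plus exercise against vehicle Ntrk2 (−0.34 to −0.19) and Manf (0.12 to 0.24), and for MPTP against vehicle Vegfa (0.28 to 0.39, smallest limma adjusted p 0.258). The other 12 turned in at least 1 setting, none past the threshold, and the cause was not tested. With the choroid plexus score added, Ntrk2 was 0.071 for MPTP plus exercise against MPTP, Fndc5 0.011 for MPTP plus exercise against vehicle, and Fndc5 0.34, Ppargc1a 0.066 and Ntf3 −0.22 for MPTP against vehicle. With array weights, Vegfa was −0.0025 for MPTP plus exercise against vehicle, and Fndc5 0.10, Ppargc1a 0.051 and Manf −0.00066 for MPTP against vehicle. With equal sums over all genes, and outside the mitochondrial genome, Vegfa was −0.059 and −0.047 for MPTP plus exercise against vehicle, and Manf −0.024 and −0.011 for MPTP against vehicle. Quantile normalization gave Ppargc1a 0.0021 for MPTP against vehicle. With 1 library left out, the ranges for MPTP plus exercise against MPTP were −0.22 to 0.32 for Ntf3, −0.24 to 0.011 for Ntrk2 and −0.0030 to 0.20 for Ntrk3. For MPTP plus exercise against vehicle they were −0.22 to 0.098 for Fndc5, −0.0015 to 0.057 for Vegfa and −0.13 to 0.011 for Ntrk3. For MPTP against vehicle they were −0.12 to 0.19 for Fndc5, −0.042 to 0.33 for Gfra1, −0.090 to 0.076 for Ppargc1a, −0.023 to 0.11 for Manf and −0.17 to 0.092 for Bdnf. With 3 libraries a group and FPKM without counts, precision is limited, most of all for Gdnf and Ntf3.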

Other observations

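A further list of 20 tested trophic factors and receptors outside these families held 0 genes past the limma test in each comparison. At an unadjusted p under 0.05 there were 2 between MPTP plus exercise and MPTP (3.99% of all tested genes), 1 between MPTP plus exercise and vehicle (6.54%) and 2 between MPTP and vehicle (4.09%). In MPTP plus exercise 4 were higher and 16 lower than in MPTP (median −0.060, all genes −0.012), and 12 higher and 8 lower than in vehicle (median 0.018, all genes −0.022). In MPTP 14 were higher and 6 lower than in vehicle (median 0.061, all genes −0.0059). Igf2, a growth factor made by choroid plexus and meninges, was at 9.42, 5.31 and 9.32 FPKM in MPTP plus exercise libraries, at 14.7, 21.8 and 16.1 FPKM in MPTP libraries and at 8.30, 19.3 and 10.4 FPKM in vehicle libraries. Pdgfa, a growth factor for oligodendrocyte precursors, was at 7.41, 6.72 and 7.27 FPKM in MPTP plus exercise libraries, at 8.34, 8.85 and 7.72 FPKM in MPTP libraries and at 7.05, 6.84 and 6.76 FPKM in vehicle libraries, and its MPTP libraries lay above both other groups. Cntf, ciliary neurotrophic factor, was at 0.745 ± 0.0812 FPKM in MPTP plus exercise and 1.16 ± 0.162 FPKM in vehicle libraries, which did not overlap (SD, n = 3 each). Il6st, the receptor chain gp130, was at 8.81 ± 1.38 FPKM in MPTP and 11.4 ± 1.22 FPKM in vehicle libraries.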
